A study of Mus musculus with 3 samples.

Results

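The MEF2 family consists of 4 transcription factor genes, Mef2a, Mef2b, Mef2c and Mef2d, and all 4 were found by symbol among 37646 genes with deposited counts. RNA was sequenced from sorted B220+GFP+ spleen cells of C57BL/6 mice with the pBIC2 genotype, which the labels call a model of ABC-DLBCL (diffuse large lymphoma with features of activated B cells). Every library shares the alleles p53F/F (a floxed p53 tumour suppressor), Blimp1F/F (a floxed plasma cell differentiation factor) and IKK2castopF/stopF (an IKK2 kinase of the NF-κB pathway that Cre switches on). Every library also carries Cg1Cre/+, so Cre comes from the Cγ1 immunoglobulin locus, and Eµ-hBCL2tg/+, a human BCL2 transgene under the Eµ enhancer. Spleens of lymphoma mice were taken when the animals were moribund, and the labels give neither age nor whether the libraries are from separate mice. The 3 libraries form 1 group and are called tumours 1, 2 and 3 here. They hold 15576975, 16477997 and 17014022 gene counts. Germinal centre B cells, which the study names as controls, were not analysed here, so the values below are levels in the lymphomas and not changes from normal B cells.

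MEF2 proteins bind AT-rich DNA as dimers through a MADS box and a neighbouring MEF2 domain. Class IIa histone deacetylases hold them in a repressed state, and calcium and MAP kinase signals release them to work with the coactivators p300 and CBP. MEF2 factors are best known from muscle, nerve and lymphoid cells. In mice, Mef2c serves B cell proliferation and survival after antigen receptor signals, and Mef2c and Mef2d act together in early B cell development. In humans, MEF2B is active in germinal centre B cells, where it drives BCL6, and it is mutated in diffuse large B cell and follicular lymphoma.

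The start regions of Mef2a and Mef2b are shown because each holds a motif that matters for the family or for B cells, and that of Hdac9, a MEF2 target and corepressor, because 1 of its 2 RefSeq windows holds both and the other neither. Sequences are RefSeq windows on GRCm38.p6 (the assembly called mm10), from 250 bases before to 50 after the start site, 5′ to 3′ on the gene's strand. Capitals mark a MEF2 motif (CTA and TAG separated by any 4 bases) or an octamer motif (ATGCAAAT, bound by OCT factors in B cells).
Mef2a, chr7:67372809-67373108, minus strand: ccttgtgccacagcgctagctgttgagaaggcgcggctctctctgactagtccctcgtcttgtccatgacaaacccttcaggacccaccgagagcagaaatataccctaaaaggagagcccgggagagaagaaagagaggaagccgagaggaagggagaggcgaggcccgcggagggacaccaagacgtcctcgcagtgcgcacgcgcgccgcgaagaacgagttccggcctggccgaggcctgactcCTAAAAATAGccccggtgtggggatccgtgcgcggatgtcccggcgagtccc
Mef2b, chr8:70152511-70152810, plus strand: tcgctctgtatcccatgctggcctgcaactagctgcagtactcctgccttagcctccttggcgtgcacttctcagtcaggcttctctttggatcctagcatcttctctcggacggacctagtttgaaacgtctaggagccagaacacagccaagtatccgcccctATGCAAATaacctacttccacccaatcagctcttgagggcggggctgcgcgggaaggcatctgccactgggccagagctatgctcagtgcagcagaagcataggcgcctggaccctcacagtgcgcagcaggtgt
Hdac9, chr12:34528840-34529139, minus strand: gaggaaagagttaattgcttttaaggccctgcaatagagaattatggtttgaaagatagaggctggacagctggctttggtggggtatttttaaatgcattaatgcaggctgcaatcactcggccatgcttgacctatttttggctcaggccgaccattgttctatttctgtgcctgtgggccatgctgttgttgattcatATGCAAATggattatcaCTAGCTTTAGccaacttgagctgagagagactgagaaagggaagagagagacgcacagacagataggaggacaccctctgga

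Among the 6 windows of the 4 MEF2 genes, the MEF2 motif was found in that of Mef2a and the octamer in that of Mef2b, on either strand. The MEF2 motif of Mef2a begins 2 bases before the annotated start, and the octamer of Mef2b lies 85 bases before it. Of all 32851 windows, 3.69% hold the MEF2 motif, 1.74% the octamer and 4.51% a κB motif, and no window of the 4 genes holds the latter. The single Mef2d window and the 3 Mef2c windows had no match to any of the 3 motifs. Of 9 MEF2 target genes with a window, Hdac9, Jun and Klf2 hold the MEF2 motif. A match is a run of letters and was not tested for binding.

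Mef2d was the most abundant member by counts. It had 7467, 5968 and 8138 counts in tumours 1, 2 and 3, which are 495, 366 and 459 CPM (counts relative to library size, scaled by TMM). The gene (ENSMUSG00000001419.17, chromosome 3, 88142372 to 88172086) therefore stood at 440 ± 66.5 CPM (SD, n = 3). Tumour 1 was highest and tumour 2 lowest, with a ratio of 1.35 (95% interval from counting error 1.31 to 1.40). Its SD of log2 CPM, 0.23, was below the median of 0.37 over 8762 genes with a mean of at least 10 CPM.

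Mef2c, the member tied to antigen receptor responses, had 2605, 3136 and 1905 counts, or 173, 192 and 107 CPM (157 ± 44.4 CPM, SD, n = 3). The gene (ENSMUSG00000005583.16) spans chromosome 13, 83504034 to 83667080. Tumours 1 and 2 lay close together and tumour 3 lowest, 1.79-fold below tumour 2 (counting interval 1.69 to 1.90). Macrophages also express Mef2c, and 9 of 10 macrophage and monocyte markers were highest in tumour 2 as well, against 30.6% of genes with a mean of at least 10 CPM, which 2 of the 10 reached. Their summed level was 36.0, 406 and 180 CPM, most of it from Cd68, a lysosomal protein (24.8, 325 and 162 CPM), and without that gene 11.2, 81.8 and 17.8 CPM. Cd14, a monocyte receptor, had 0, 3 and 0 counts. Their part in the Mef2c level was not tested, and fewer cells of a type cannot be told apart from less RNA per cell.

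Mef2a, the broadly expressed member, had 2585, 1841 and 1763 counts, or 171, 113 and 99.4 CPM (128 ± 38.2 CPM, SD, n = 3). It lies on chromosome 7, 67231163 to 67372858 (ENSMUSG00000030557.17). Tumour 1 was 1.72-fold above tumour 3 (counting interval 1.62 to 1.83). The spread of Mef2c and Mef2a, with an SD of log2 CPM of 0.45 and 0.41, was near the median gene.

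Mef2b, the germinal centre member, differed most between the tumours. It had 2368, 391 and 587 counts in the tumours in order. These are 157 CPM (counting interval 151 to 163), 24.0 CPM (21.7 to 26.5) and 33.1 CPM (30.5 to 35.9), with a mean of 71.3 ± 74.3 CPM (SD, n = 3) and of 29.0 CPM without tumour 1. Tumour 1 stood 6.55-fold above tumour 2 (counting interval 5.88 to 7.31) and 4.74-fold above tumour 3 (4.33 to 5.20), and tumour 3 was 1.38-fold above tumour 2 (1.21 to 1.57). Each tumour has 1 library, so these ratios compare libraries and have no replicate check.

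**Figure D1:**
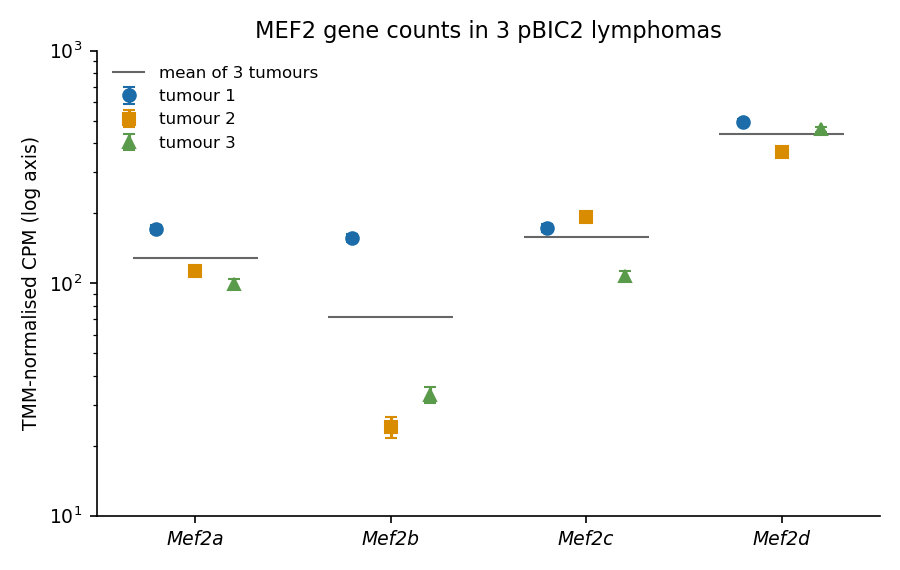
TMM-normalised CPM (log axis) of the 4 MEF2 genes in tumours 1, 2 and 3. Points are libraries with 95% Poisson intervals for counting error, which are mostly smaller than the points, and lines are means of 3 tumours. Mef2b in tumour 1 (157 CPM) sits far above tumours 2 and 3 (24.0 and 33.1 CPM), while Mef2d stays between 366 and 495 CPM.

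A difference of at least 4-fold between the highest and lowest tumour was seen in 783 of 8762 genes (8.94%) with a mean of at least 10 CPM. Mef2b alone of the 4 MEF2 genes (1 of 4) was beyond it, and the highest-to-lowest ratio of Mef2a, Mef2c and Mef2d was from 1.35 to 1.79 against a median of 1.64 over those genes. At least 4-fold above both other tumours in tumour 1, as Mef2b was, were 96 genes (1.1%). The SD of log2 CPM of Mef2b was 1.45, and 93.97% of the 8762 genes had a smaller SD. Without tumour 1 the ratio of Mef2b was 1.38, and 396 genes passed 4-fold. The number was 585 without tumour 2 and 455 without tumour 3. Fewer tumours then enter, so these numbers are not comparable with 783 of 8762.

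**Figure D2:**
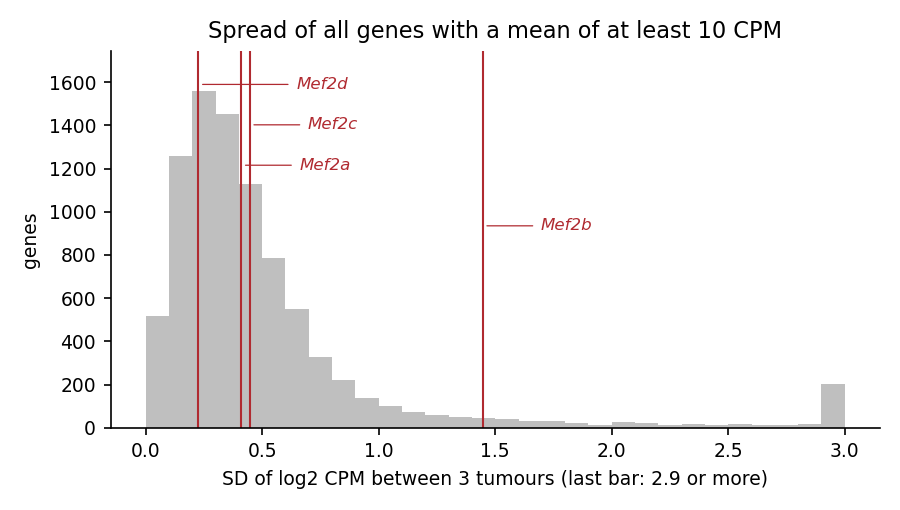
Histogram of the SD of log2 CPM between 3 tumours (x axis) for 8762 genes with a mean of at least 10 CPM (y axis, number of genes). The last bar holds genes at 2.9 or more, and lines mark the 4 MEF2 genes. Mef2d (0.23), Mef2a (0.41) and Mef2c (0.45) lie within the bulk and Mef2b (1.45) in the tail.

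Levels of different genes were compared per length, as RPKM (CPM per kilobase of merged exons in GENCODE M21). Mef2d stood at 73.5 ± 11.1 RPKM, Mef2b at 50.8 ± 52.9, Mef2c at 10.0 ± 2.83 and Mef2a at 8.71 ± 2.61 RPKM (SD, n = 3). In tumour 1, Mef2b at 112 RPKM was above Mef2d at 82.7 RPKM. In tumours 2 and 3 the order was the other way, with Mef2b at 17.1 and 23.6 RPKM and Mef2d at 61.1 and 76.6 RPKM. Mef2b thus held 51.5% of the summed RPKM of the family in tumour 1, 17.4% in tumour 2 and 20.7% in tumour 3, and Mef2d held 38.1%, 62.3% and 67.3%.

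Neighbours in this order were not separated beyond their spread in every case. The log2 RPKM of Mef2d exceeded that of Mef2b by 1.03 ± 1.27 (2 of 3 tumours; two-sided exact sign-flip permutation p = 0.5). Mef2b exceeded Mef2c by 1.87 ± 1.43 (3 of 3 tumours; exact permutation p = 0.25), but by 0.62 with the longest transcript (exact permutation p = 0.75). Leaving out each tumour in turn gave 1.14, without tumour 1, to 2.57, without tumour 2. For Mef2d minus Mef2b it gave 1.77 without tumour 1, 0.63 without tumour 2 and 0.70 without tumour 3. Mef2c exceeded Mef2a by 0.20 ± 0.41 (2 of 3 tumours; exact permutation p = 0.75). The smallest p that 3 tumours allow is 0.25. Mef2d exceeded Mef2a by 3.10 ± 0.35 and Mef2c by 2.91 ± 0.58 on the same log2 scale, in 3 of 3 tumours each (exact permutation p = 0.25 for both).

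The gene length used moved these levels. Merged exons span 14681 bases in Mef2a and 15715 in Mef2c, while their longest annotated transcripts have 5538 and 6277 bases. Mef2b has 1404 merged exon bases and Mef2d 5985, close to their longest transcripts of 1342 and 5401 bases. By the longest transcript, Mef2a stood at 23.1 ± 6.91 RPKM and Mef2c at 25.1 ± 7.08 RPKM (SD, n = 3). Mef2b at 17.9 RPKM was then the lowest of the 4 in tumour 2, below Mef2c at 30.6 and Mef2a at 20.4 RPKM. In tumour 1 Mef2b was the highest MEF2 gene under both lengths.

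**Figure D3:**
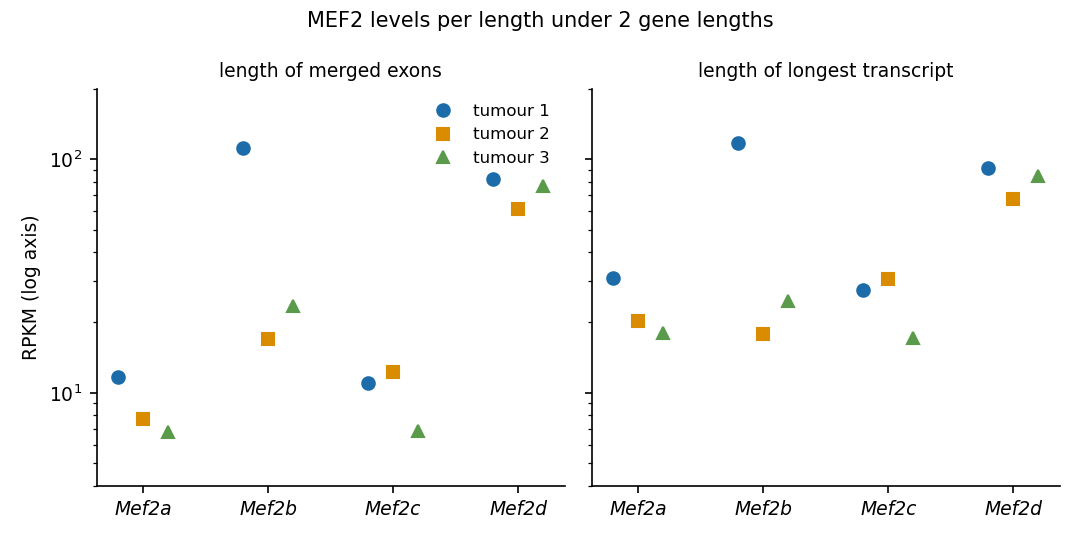
RPKM (log axis) of the 4 MEF2 genes in each tumour, with the length of merged exons (left) or of the longest annotated transcript (right). Mef2b leads in tumour 1 in both panels, at 112 and 117 RPKM, while its place in tumour 2 (17.1 and 17.9 RPKM) against Mef2c (12.2 and 30.6 RPKM) depends on the length.

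Reads of overlapping genes can affect the members. Mef2b (ENSMUSG00000079033.10, chromosome 8, 70139711 to 70167488) has 5 annotated transcripts, of which 1 begins inside the neighbouring gene Borcs8 and 4 begin at its own start region shown above. The 2 genes share 62 exon bases on the same strand. Borcs8 had 534, 359 and 569 counts in tumours 1, 2 and 3, or 35.4, 22.0 and 32.1 CPM. Its order over the tumours was that of Mef2b (157, 24.0 and 33.1 CPM), and its part in the Mef2b level was not tested. Mef2d shares 531 exon bases with the antisense gene 1700113A16Rik (20, 26 and 43 counts), and Mef2a shares 302 with Lysmd4 on the opposite strand (127, 185 and 145 counts). Counts per gene cannot tell transcripts of 1 gene apart.

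The libraries carried the markers of B cells that the labels name. Each of 10 pan B cell genes, and each of the 4 MEF2 genes, reached 10 CPM in every library, which 20.5% of all genes listed did. The B cell genes were led by Cd74 (8996 ± 4562 CPM, SD, n = 3) and Ms4a1 (1913 ± 882 CPM). T cell markers were concentrated in tumour 3, where 9 of 10 were highest (33.5% of genes with a mean of at least 10 CPM), with a summed level of 840 CPM against 7.56 and 34.3 CPM in tumours 1 and 2. Tumour 1, where Mef2b was highest, had the lowest summed level of T cell, macrophage, neutrophil and dendritic cell markers (7.56, 36.0, 0.199 and 4.04 CPM). The dendritic cell sum was close in tumours 2 and 3 (4.60 and 5.30 CPM) and followed Zbtb46 (24, 37 and 67 counts). Flt3 (20, 18 and 16 counts) and Xcr1 (16, 15 and 10 counts) of that list were instead highest in tumour 1. Stroma and endothelium markers summed to 10.1, 2.70 and 4.28 CPM. In tumour 1 most of that sum was Col1a1 (127, 0 and 7 counts over the tumours), while Cdh5 was lowest there (25, 38 and 46 counts). Markers of megakaryocytes and erythroid cells summed to 11.4, 18.0 and 11.2 CPM, and those of plasma cells to 639, 520 and 403 CPM. The plasma cell sum followed Irf4 (392, 297 and 233 CPM) and Mzb1 (155, 142 and 44.8 CPM), while Xbp1 (90.0, 73.3 and 113 CPM), Jchain (21, 132 and 210 counts) and Sdc1 (3, 7 and 9 counts) were highest in tumour 3.

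Mef2b did not share its tumour pattern with most listed germinal centre genes, most of which had means below 10 CPM. Of 13 germinal centre genes other than Mef2b, 8 were highest in tumour 3, 3 in tumour 2 and 1 in tumour 1 (33.5%, 30.6% and 35.9% of genes with a mean of at least 10 CPM, which 3 of the 13 reached), and Gcsam had no count, which allows up to 0.199, 0.184 and 0.169 CPM in tumours 1, 2 and 3. Of the 3 with a mean of at least 10 CPM, 1 was highest in tumour 1, 2 in tumour 2 and 0 in tumour 3. All 8 genes that were highest in tumour 3 thus had a mean below 10 CPM. Bcl6, the repressor that MEF2B drives in human germinal centre cells, had 7, 43 and 257 counts in tumours 1, 2 and 3. Fas, a death receptor, had 2, 28 and 269 counts. Rgs13, a regulator of G protein signalling, had 1 count in tumour 1, 1469 in tumour 2 and 53 in tumour 3. These 3 genes were lowest in tumour 1, the tumour with the most Mef2b. So were Basp1 (4, 20 and 8 counts), Efnb1 (1, 7 and 16 counts) and Serpina9 (0, 5 and 82 counts), all with few counts. Nuggc had 0, 0 and 2 counts. Among listed genes that were not lowest in tumour 1, S1pr2 and Mybl1 were lowest in tumour 2 by CPM. Neil1 and Plxnb2, given below, were lowest in tumour 3. T cell markers also had their highest sum in tumour 3 (840 CPM), and their part in the Bcl6 and Fas counts was not tested.

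Neil1, a DNA glycosylase of base excision repair, was the germinal centre gene highest in tumour 1. It reached 85.0, 11.95 and 11.0 CPM, and in tumour 1 was at least 4-fold above both other tumours like Mef2b. Plxnb2, a semaphorin receptor and the most abundant of the list, was at 201, 267 and 118 CPM. The other 10 listed genes with a count had means below 10 CPM except Rgs13 (31.0 ± 51.1 CPM), and the median of the list was 0.265, 1.35 and 4.62 CPM.

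**Figure D4:**
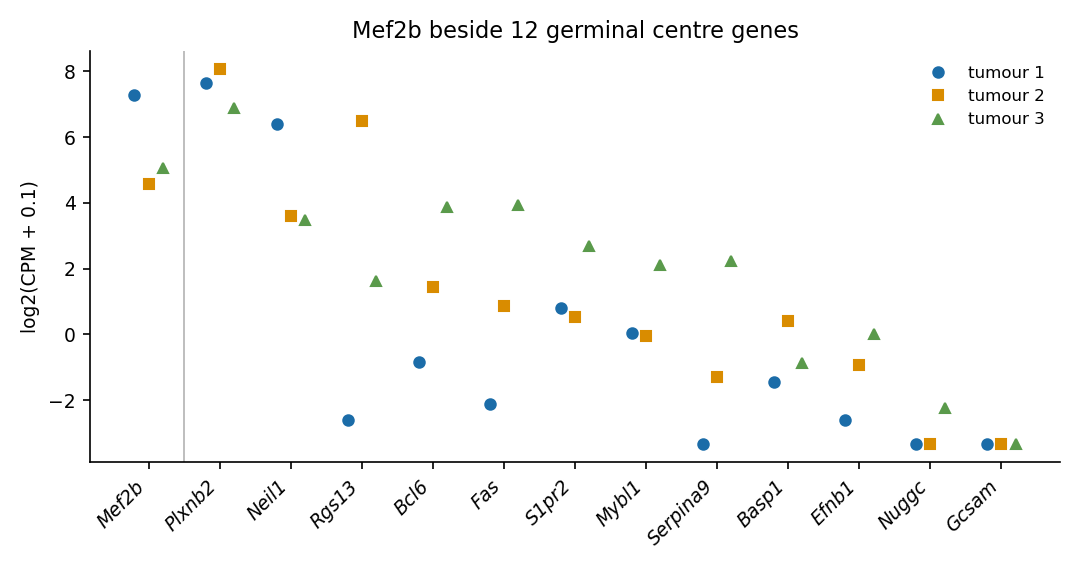
Level of Mef2b (left of the line) and of 12 of the 13 germinal centre genes in each tumour, as log2 of CPM plus 0.1. Mef2b and Neil1 are highest in tumour 1, while Bcl6, Fas and Rgs13 are lowest there.

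Regulators and targets of MEF2 comprised 46 genes. Of these, 35 reached 10 CPM in every library (20.5% of all genes listed did) and 41 had a mean of at least 10 CPM. Of the 41, 9 differed at least 4-fold between tumours (22.0%, against 8.94% of all such genes), and their median SD of log2 CPM was 0.41 against 0.37. Tumour 1 was lowest in 7 of these 9, and in 54.3% of the 783 genes that differed at least 4-fold. It was at least 4-fold below both other tumours for 5 of them, Hdac9, Jun, Klf4, Camk1d and Prkd3, or 12.2% of the 41 against 2.96% of all genes with a mean of at least 10 CPM. None of the 41 was at least 4-fold above both others in tumour 1, as 1.1% of those genes were. The lists were chosen with results of these data known and their shares are descriptions.

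Among 8 corepressors, the class IIa deacetylases diverged. Hdac9 stood at 2.92, 39.0 and 37.25 CPM in tumours 1, 2 and 3. Hdac4 was at 22.1, 141 and 78.6 CPM, and Hdac5 at 69.1, 27.3 and 58.3 CPM, so the latter was lowest in tumour 2. Hdac7, the class IIa member of lymphoid cells, had 131, 124 and 121 CPM and varied least, with an SD of log2 CPM of 0.056. The corepressor scaffold Ncor1 (440 ± 136 CPM) and Cabin1, a calcineurin-binding repressor of MEF2 (302 ± 137 CPM), were the most abundant.

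The spread of 5 of 6 coactivators was below the median gene. Ep300, which encodes p300, was at 340, 355 and 288 CPM, Ncoa2 at 99.9, 122 and 117 CPM, and Crebbp, which encodes CBP, at 99.4, 78.3 and 120 CPM. Maml1, a Notch coactivator, had the largest spread, at 26.0, 39.2 and 49.99 CPM, and Carm1, an arginine methyltransferase, was at 91.1, 68.4 and 79.0 CPM. No gene of this list was beyond 4-fold, as 8.94% of genes with a mean of at least 10 CPM were. Srf, the related MADS-box factor, was at 94.0, 123 and 123 CPM.

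Of 21 upstream kinase and phosphatase genes, 15 reached 10 CPM in all 3 libraries, against 20.5% of all genes listed. Of the 18 with a mean of at least 10 CPM, 3 differed at least 4-fold, against 8.94% of all such genes. Camk1d, a calcium and calmodulin dependent kinase, had 13, 1076 and 963 counts. Prkd3, a protein kinase D that acts on class IIa deacetylases, had 10, 282 and 440 counts, while Prkd2 of the same family was at 118, 133 and 197 CPM and Prkd1 had no count. Map2k6, a kinase of p38, was at 3.84, 33.7 and 13.5 CPM. Sik1, a kinase that phosphorylates class IIa deacetylases, led the list with 1113, 432 and 327 CPM, followed by Camk2d (166, 221 and 291 CPM). Camk4 had 12, 3 and 66 counts. T cells also express Camk4, and their markers were highest in tumour 3 as well; their part was not tested.

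Known targets went different ways. Klf2, a factor of lymphocyte quiescence, was at 800.5, 646 and 824 CPM, and Myc, a target of MEF2B in human cells, at 711.5, 995.5 and 646 CPM. Jun, an AP-1 subunit, stood at 135, 1158 and 712 CPM, and Klf4, a growth restraining factor, at 1.79, 12.2 and 31.8 CPM. Both were lowest in tumour 1. Ndrg1, a stress-induced gene, had 3, 9 and 88 counts. Nr4a1, an orphan nuclear receptor induced by antigen receptor signals, was highest in tumour 1, with 234, 48.2 and 111 CPM, and its relative Nr4a3 was at 8.55, 2.64 and 23.1 CPM. Of the 12 targets, Nr4a1 was the only gene highest in tumour 1, with 4 highest in tumour 2 and 7 in tumour 3. Over genes with a mean of at least 10 CPM, which 10 of the 12 reached, these shares were 35.9%, 30.6% and 33.5%. Bcl6 and Hdac9 are counted among them and described above.

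**Figure D5:**
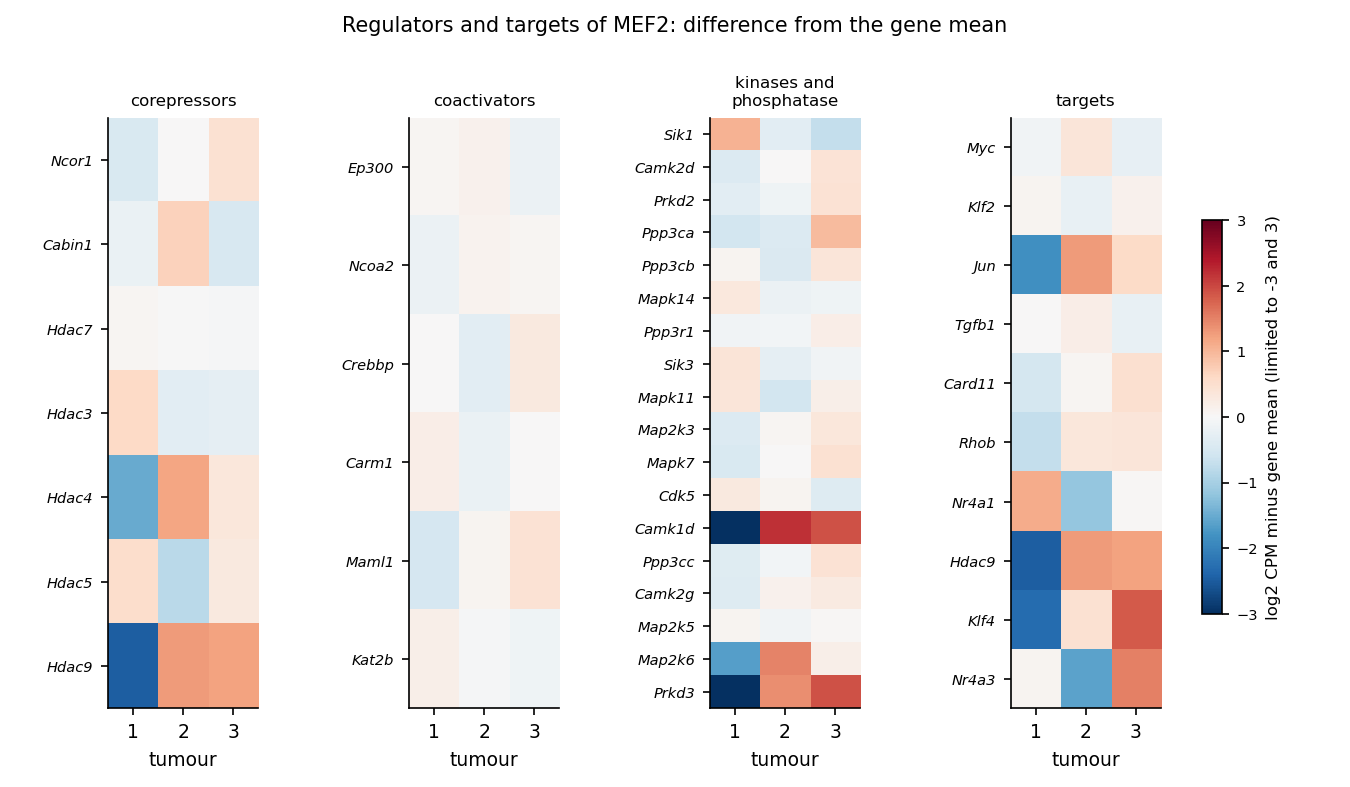
Difference of log2 CPM in each tumour (columns) from the gene's mean over 3 tumours, for 40 regulators and targets of MEF2 with a mean of at least 10 CPM (rows, most abundant first). Blue is below and red above the mean, and colours are limited at -3 and 3. Hdac9, Camk1d, Prkd3, Klf4 and Jun are lowest in tumour 1, and coactivators differ little.

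The genes closest in pattern were found by the Euclidean distance of centred log2 CPM over 3 tumours among 8377 named genes with a mean of at least 10 CPM. Mef2b had among its 5 closest Kalrn (27.2, 4.11 and 5.97 CPM; distance 0.058), Ehd3, an endocytic protein (205, 33.5 and 41.4 CPM), Vgll4, a TEAD cofactor (282, 49.1 and 65.8 CPM), and Faah, a hydrolase of fatty acid amides (79.4, 13.2 and 19.2 CPM; distance 0.15). Within a distance of 0.25 there were 9 genes for Mef2b, against 564 for Mef2a, 504 for Mef2c and 922 for Mef2d. Distances were not scaled by spread, so these counts also reflect the SD of log2 CPM of each member. It was 1.45 for Mef2b, 0.41 for Mef2a, 0.45 for Mef2c and 0.23 for Mef2d. The closest were Nfyb, Epn2, Smad2, Akr1b10 and Oas1b for Mef2a, Bclaf1, Jmjd1c, Qrsl1, St13 and Cox14 for Mef2c, and Hmgxb4, Sf3b4, Chd4, Uqcrc1 and Cep97 for Mef2d. With 3 tumours, such likeness describes these libraries only.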

How the data were processed

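The authors deposited raw counts for each gene, from polyA-selected RNA. The submitters' processing notes name FastQC, STAR 2.5.2b, featureCounts 1.6.0 and the mm10 build as what the authors used. The sources used here give neither the annotation release nor the strand setting, so antisense overlaps cannot be told apart. Of 37646 gene identifiers, 37536 matched GENCODE M21 without version, which gave coordinates and lengths.

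The labels give 1 group and do not say that libraries are separate mice, so the spread may be technical, and libraries were numbered in accession order. CPM used TMM factors (0.969, 0.990 and 1.04) from edgeR 4.0.16 (R 4.3.3) after filterByExpr, multiplied with total counts; log2 CPM used a prior count of 2. DESeq2 1.42.0 size factors were an alternative. Python 3.11.15 with SciPy 1.17.1, pandas 2.3.3, matplotlib 3.10.9 and NumPy 2.4.6 served for the rest, tested on simulated counts. Start-region sequences are from RefSeq (GRCm38.p6). Intervals are exact Poisson or binomial 95% intervals and cover counting error only, since no molecular identifiers are named. A count of 0 allows up to 3 counts.

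Members and lists (MEF2 corepressors, coactivators, kinases and phosphatase, targets, Srf, germinal centre, muscle, pan B, plasma, T, macrophage, neutrophil, dendritic, stromal and megakaryocyte or erythroid genes) were chosen with earlier results of these data known. Named were the 3 most abundant genes of each list (marker lists other than B cells are given as sums), genes with no count, the 3 of largest SD of each MEF2 list, the 5 closest genes per member and overlapping genes. Others were named after their values were seen. Some genes within it are left out of the text and plots.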

Additional observations from a re-analysis of the deposited data

How the results depend on the processing

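Of 136 recomputed values, 117 kept their direction and stayed within the spread or the 1.5-fold limit of the value reported. This tally is no measure of robustness. Library scaling cancels in family shares and almost cancels in log2 differences between genes, so these could hardly move with it. The limit was also wide where the SD was large. The Mef2b mean of 71.3 ± 74.3 CPM counted as kept at 29.0 CPM without tumour 1. With total counts the ratio of the highest to the lowest tumour for Mef2a was 1.602, below the counting interval of 1.62 to 1.83 around the reported 1.72. The 2 ratios use the same counts and differ only in the TMM factors. With the longest transcript, Mef2a stood at 23.1 RPKM (12.97% of the summed RPKM) and Mef2c at 25.1 RPKM (14.8%). The 783 genes with 4-fold differences became 2381 with a mean of at least 1 CPM, 12520 with no filter and 2653 at 2-fold. Leaving out each tumour in turn gave 396 to 585 such genes. It gave highest-to-lowest ratios of 1.14 to 1.68 for Mef2a, 1.38 to 6.59 for Mef2b, 1.11 to 1.80 for Mef2c and 1.05 to 1.36 for Mef2d, since fewer tumours then enter. The log2 difference of Mef2c minus Mef2a ranged from -0.037, reversed without tumour 2, to 0.34, that of Mef2b minus Mef2c from 1.14 to 2.57 (0.62 with the longest transcript) and that of Mef2d minus Mef2b from 0.63 to 1.77. The length without bases shared with other genes was added after seeing the data. Libraries could not be paired between groups, because the labels give 1 group and no replicate numbers. The sign-flip tests compared genes within each library.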

Other observations

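Muscle genes, the best known setting of MEF2, were nearly silent, with 1 exception by counts. Of 9 genes, Myog, Myf5, Des and Myh6 had no count, and Myod1, Ckm, Acta1 and Actc1 had at most 4 counts in any tumour. Ttn, which encodes the sarcomere protein titin, had 16, 992 and 2034 counts, or 1.06, 60.8 and 115 CPM. Per length, its mean was 0.504 RPKM, an average over these unlike levels. The mean of Acta1 was 0.121 RPKM, but it rests on only 3, 4 and 2 counts. Ttn was lowest in tumour 1, where Mef2b was highest. The RefSeq start region of Ttn holds the MEF2 motif searched above, as do those of Des and Myf5, which had no count. A match was not tested for binding, and 3.69% of all windows hold it.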
